A study of Homo sapiens with 20 samples.

Results

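Cholesterol and fatty acids are built in the cytosol and the endoplasmic reticulum from acetyl-CoA. The sterol branch runs through mevalonate, farnesyl diphosphate, squalene and lanosterol, and the fatty acid branch runs through malonyl-CoA and palmitate, which is then elongated and desaturated. Genes of both branches are classical targets of the SREBP transcription factors, which stay in the endoplasmic reticulum when sterols are plentiful and are released to the nucleus when sterols are scarce. Dividing cells need both products for new membrane, and in the brain, cholesterol is made locally because circulating cholesterol hardly crosses the blood-brain barrier.

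The genes described here are 28 genes of cholesterol and fatty acid synthesis, out of 20237 coding records and 38369 records in all. They were chosen by name, with earlier results of these data known, and with 1 coding record per gene symbol. Where a symbol had several records, the record with the highest mean level was kept. All 28 had a mean level of at least 1 FPKM (sequenced fragments per unit of transcript length and of library size) over the time course. They comprise 7 enzymes of the mevalonate stage, 9 enzymes from squalene to cholesterol, 4 sterol regulators and carriers, and 8 fatty acid synthesis genes.

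They were followed in neural progenitors made from the human embryonic stem cell line H1, so all cultures come from 1 line. The 7 groups run from day 0 to day 18 of neuronal differentiation with days 1, 2, 4, 5 and 11 between them. There were 3 cultures per day except at day 5, which had 2. At day 0 the cells were in a proliferation medium with FGF, N2 and B27 lacking vitamin A, on a basal mix of DMEM/F12 and Neurobasal. From then on FGF, N2 and DMEM/F12 were left out, BDNF was added and the same B27 was raised in concentration. Cells for days 5, 11 and 18 had been replated at day 4 from Matrigel onto poly-D-lysine and laminin. These changes of medium came together after day 0, so their parts in any difference between day 0 and a later day cannot be told apart.

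Each gene had 1 FPKM value per day, estimated before deposit from all cultures together. No spread between cultures and no depth stands behind a value here, so every difference below is a description without a test. The FPKM values summed over all records were 413978 at day 0 and 251156 at day 18, and the median coding record was lower by 0.11 on the log2 scale at day 1 and by 0.60 at day 18. Changes are therefore given on the scale of log2(FPKM + 0.1) relative to the median of the 11793 coding records with a mean of at least 1 FPKM, with the change as deposited beside it where the direction or the count depends on it. In bulk RNA, fewer cells of a type and less RNA per cell cannot be told apart.

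As a check of the labels, the 7 neuron markers summed to 724 FPKM at day 0 and 1753 at day 18, and 5 of them were at least 2-fold higher at day 18 relative to the median record. The 5 neural progenitor markers summed to 3640 FPKM at day 0 and 1785 at day 18, but they did not move as a set. Relative to the median record, 3 of 5 were lower at day 18, none by 2-fold, and 2 were higher, 1 of them by at least 2-fold. Their median relative change was -0.34, and as deposited 4 of 5 were lower, where 76.1% of coding records were. Of the 7 astrocyte and radial glia markers, GFAP, AQP4 and ALDH1L1 had mean levels under 1 FPKM. Of the 4 others, SLC1A3, SLC1A2 and FABP7 were at least 2-fold higher at day 18 relative to the median record. The fourth, S100B, was lower at day 18, both relative to the median record and as deposited. The 4 with a mean of at least 1 FPKM summed to 221 FPKM at day 0 and 343 at day 18. Of the 7 oligodendrocyte lineage markers, OLIG2, SOX10, CSPG4, MBP and MOG had means under 1 FPKM.

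Promoter stretches of 5 of the genes are shown because SREBPs act at short promoter elements, usually beside sites for NF-Y and Sp1. RefSeq promoter windows (GRCh38.p14, from 250 bases before to 50 bases after the transcription start) were matched by symbol for 24 of 28 genes, and FDFT1, SQLE, ACAT2 and FASN had no entry. Each stretch gives the 150 bases before the annotated start, 5′ to 3′ on the gene's own strand. Capitals mark the letters TCACNCCAC (an SREBP element), CACGTG (an E-box), CCAAT (the NF-Y box) and GGGCGG (the Sp1 box), on either strand.
FDPS promoter, chr1:155308716-155308865, plus strand: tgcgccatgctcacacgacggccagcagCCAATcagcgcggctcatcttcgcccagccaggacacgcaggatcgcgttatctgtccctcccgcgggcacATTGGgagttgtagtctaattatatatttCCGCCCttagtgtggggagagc
EBP promoter, chrX:48521658-48521807, plus strand: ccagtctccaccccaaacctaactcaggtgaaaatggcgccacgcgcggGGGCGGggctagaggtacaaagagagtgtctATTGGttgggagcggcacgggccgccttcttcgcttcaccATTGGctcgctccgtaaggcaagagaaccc
INSIG1 promoter, chr7:155297728-155297877, plus strand: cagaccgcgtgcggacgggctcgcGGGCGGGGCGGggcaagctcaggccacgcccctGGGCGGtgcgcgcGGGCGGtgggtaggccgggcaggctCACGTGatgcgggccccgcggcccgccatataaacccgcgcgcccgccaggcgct
SREBF1 promoter, chr17:17836987-17837136, minus strand: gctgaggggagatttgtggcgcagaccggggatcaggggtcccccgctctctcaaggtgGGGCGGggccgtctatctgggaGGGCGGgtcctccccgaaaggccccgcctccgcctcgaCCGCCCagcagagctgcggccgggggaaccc
SREBF2 promoter, chr22:41832955-41833104, plus strand: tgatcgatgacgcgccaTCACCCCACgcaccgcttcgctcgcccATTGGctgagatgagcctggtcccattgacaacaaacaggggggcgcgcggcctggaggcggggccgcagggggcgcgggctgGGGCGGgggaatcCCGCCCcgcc

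The NF-Y and Sp1 boxes did not divide the 5 genes by their change over time, which is given below. The SREBP element was marked only in SREBF2, the 1 of the 5 not lower at day 18 than at day 0. With 1 gene, nothing is read from that. FDPS and EBP, at 21.1% and 28.1% of day 0 at day 18, each held 2 NF-Y boxes in these stretches, and SREBF2, at 103%, held 1. SREBF1, at 22.7%, and INSIG1, at 43.1%, held Sp1 boxes and no NF-Y box in theirs, and the NF-Y box of the INSIG1 window lay 170 bases before the start. Over the whole windows, the NF-Y box was found in 16 of 24 promoters (66.7%), against 37.0% of the 8560 RefSeq promoters whose gene symbol had an expressed coding record here. The Sp1 box was found in 21 of 24 (87.5%), against 70.5%, and the E-box in 3 of 24, in ELOVL5, INSIG1 and LSS, against 10.1%. The SREBP element in this strict spelling was found in 1 of 24, that of SREBF2, against 1.18%. Over all 27305 RefSeq promoters of this length the shares were 35.7% for the NF-Y box, 44.6% for the Sp1 box, 7.43% for the E-box and 1.15% for the SREBP element. The only overlap among matches in the printed stretches is that of 2 Sp1 boxes of INSIG1. These are matches of letters in windows of RefSeq, not measurements of binding, and the start used in these cells was not measured.

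Most genes of both branches were lower from the first day of differentiation. Between day 0 and day 1, 25 of 28 were lower relative to the median coding record, with a median of -0.63, and 20 of 28 lay in the lowest 10% of all coding records for that step. The 28 genes summed to 3818 FPKM on day 0 and 2161 on day 1, followed by 2269, 1996, 1867, 1759.7 and 1546 on the other 5 days in order. As a share of all coding FPKM, they held 1.06% on day 0, 0.704% on day 1, 0.621% on day 4, which was the lowest, and 0.715% on day 18. The share was thus lower on all 6 later days than on day 0.

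At the threshold of 2-fold, 4 of 28 genes were lower at day 1 relative to the median record (FDPS, SREBF1, ACAT2 and FADS2), where 2.09% of all coding records were. As deposited, 9 of 28 were at least 2-fold lower, against 3.09% of coding records. At 1.5-fold, 18 of 28 were lower, against 8.79%. None of the 28 was 2-fold higher at day 1, where 4.66% of coding records were. No gene of the 28 passed 2-fold in either direction in any of the 5 later steps between adjacent days, relative or as deposited. Few coding records did, between 0.0424% and 3.05% per step and direction relative to the median record, so nothing is read from that count.

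**Figure D1:**
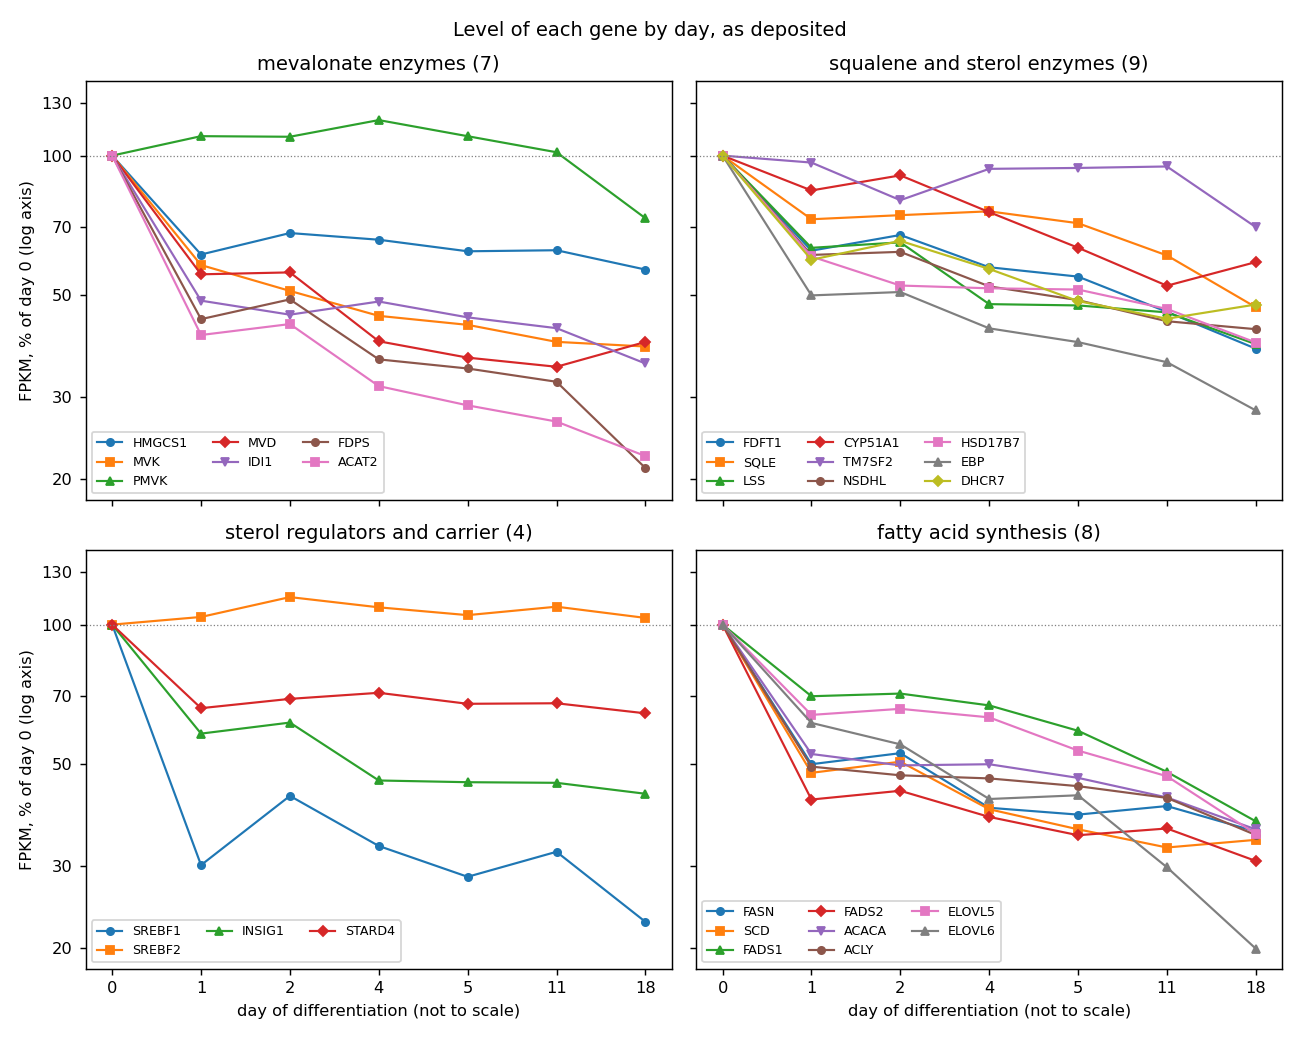
FPKM of each of the 28 genes by day, as a percentage of its own day 0 value on a log axis, in 4 panels by role; each point is the authors' single value for that day and has no error bar. Most lines are lower at day 1 and lower again by day 18, while PMVK, TM7SF2 and SREBF2 stay closest to their day 0 level.

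The mevalonate stage makes the isoprenoid units of sterols, and 6 of its 7 genes were lower at day 1 relative to the median record, with a median of -0.75. ACAT2, the cytosolic thiolase that joins acetyl-CoA units (chr6:160182989-160200085 on hg19, plus strand), was at 270.1, 110.5, 117, 85.6, 77.8, 71.8 and 60.4 FPKM on the 7 days in order. FDPS, the farnesyl diphosphate synthase whose promoter is printed above (chr1:155278539-155290457 on hg19), was at 256, 113, 125, 92.8, 88.7, 83.0 and 54.0 FPKM. They stood at 40.9% and 44.3% of day 0 on day 1 and at 22.4% and 21.1% on day 18, with relative changes of -1.18 and -1.07 at day 1 and of -1.56 and -1.64 at day 18.

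IDI1, the isomerase of isopentenyl diphosphate, was at 162 FPKM at day 0, 78.5 at day 1 and 57.4 at day 18. MVD, which decarboxylates mevalonate diphosphate, went from 128 FPKM at day 0 to 70.7 at day 1, reached its lowest value of 44.6 at day 11 and was at 50.5 at day 18. MVK, the mevalonate kinase, had lower levels throughout, at 29.6 FPKM at day 0, 17.1 at day 1 and 11.4 at day 18. These 3 genes had relative changes between -0.68 and -0.93 at day 1, and between -0.74 and -0.89 at day 18, so on this scale most of their distance from day 0 was already there after 1 day.

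HMGCS1, the synthase of HMG-CoA and the most abundant of the 28 at day 0, stood above the other genes of this stage on all 7 days. Its values were 492, 301, 334, 324, 305, 307 and 279 FPKM on the 7 days, and its relative change was -0.60 at day 1 and -0.22 at day 18. PMVK, the kinase that follows MVK, was not lower at day 1. It was at 16.7, 18.4, 18.4, 20.0, 18.4, 17.0 and 12.2 FPKM, highest at day 4. Its change at day 18 was 0.15 relative to the median record and -0.45 as deposited, so the scaling set its sign.

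Of the 9 genes from squalene to cholesterol, 8 were lower at day 1 relative to the median record, with a median of -0.58, and none passed 2-fold. As deposited, all 9 were lower, where 59.7% of coding records were. EBP, the sterol isomerase, had the lowest change of the 9, and as deposited it passed 2-fold at day 1. It was at 68.8, 34.3, 34.9, 29.1, 27.2, 24.6 and 19.3 FPKM on the 7 days, a relative change of -0.90 at day 1 and -1.23 at day 18. FDFT1, the squalene synthase at the branch into sterols, was at 381 FPKM at day 0, 237 at day 1 and 146 at day 18. LSS, which closes squalene epoxide into lanosterol, was at 104, 65.6 and 40.6 FPKM on those days.

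NSDHL and HSD17B7, which act together in removing methyl groups from the sterol ring, had close relative changes of -0.60 and -0.61 at day 1 and of -0.64 and -0.73 at day 18. NSDHL was at 46.1 FPKM at day 0, 28.1 at day 1 and 19.4 at day 18, and HSD17B7 at 22.5, 13.6 and 8.88. DHCR7, the reductase that yields cholesterol, was at 70.9 FPKM at day 0, 42.2 at day 1, a lowest value of 31.5 at day 11 and 33.8 at day 18. These 3 stood between 59.5% and 61.0% of day 0 on day 1.

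SQLE, the squalene epoxidase and a controlled step of the pathway, changed less. It was at 135, 98.3, 100.3, 102, 96.4, 82.1 and 63.4 FPKM on the 7 days, so it held about its day 1 level to day 5 and was lower at days 11 and 18. CYP51A1, the lanosterol demethylase, was at 35.9 FPKM at day 0 and 30.1 at day 1, with a lowest value of 18.7 at day 11. TM7SF2, a sterol reductase, was at 32.8, 31.6, 26.2, 30.7, 30.8, 31.0 and 22.9 FPKM. The relative change of TM7SF2 was 0.06 at day 1 and 0.09 at day 18, against -0.05 and -0.51 as deposited, so its sign depended on the scaling on both days.

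The SREBP genes differed from each other. SREBF1, whose product is best known for driving fatty acid genes, was at 21.5, 6.50, 9.18, 7.15, 6.13, 6.95 and 4.90 FPKM on the 7 days. Its level at day 1 was 30.2% of day 0, and its relative change of -1.61 was the lowest of the 28, with 0.483% of coding records below it. SREBF2, whose product mainly drives sterol genes, was at 158, 164, 181, 172, 166, 173 and 163 FPKM. Its lowest value was that of day 0, and its relative change was 0.16 at day 1 and 0.65 at day 18, against 0.06 and 0.05 as deposited. The level per length of SREBF2 was above that of SREBF1 on all 7 days.

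INSIG1, the anchor that keeps SREBPs in the endoplasmic reticulum and is itself a classical SREBP target, was at 46.6, 27.0, 28.6, 21.4, 21.2, 21.2 and 20.0 FPKM. Its values on the 6 later days lay between 20.0 and 28.6 FPKM, apart from that of day 0. STARD4, a cytosolic sterol carrier, was at 31.1 FPKM at day 0 and between 20.0 and 22.2 on all 6 later days. Its relative change was -0.49 at day 1 and -0.04 at day 18, against -0.60 and -0.64 as deposited.

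All 8 fatty acid synthesis genes were lower at day 1 and at day 18, with median relative changes of -0.86 and -0.91. ACLY, which makes cytosolic acetyl-CoA from citrate, was at 151, 74.5, 71.3, 70.2, 67.6, 63.7 and 53.0 FPKM on the 7 days. ACACA, the carboxylase that makes malonyl-CoA, was at 43.6, 22.9, 21.6, 21.7, 20.3, 18.4 and 15.7 FPKM, and FASN, the synthase that makes palmitate, at 120.0, 59.9, 63.3, 48.2, 46.6, 48.6 and 42.8 FPKM. These genes of the successive steps from citrate to palmitate stood at 49.3%, 52.5% and 49.9% of day 0 at day 1 and at 35.1%, 36.1% and 35.7% at day 18.

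SCD, the stearoyl-CoA desaturase that makes monounsaturated fatty acids, was at 437, 209, 221, 174, 158, 144 and 149.5 FPKM. FADS2 and FADS1, the desaturases of polyunsaturated fatty acids, lie head to head on chromosome 11 (FADS1 at chr11:61567103-61584529 on the minus strand, FADS2 at chr11:61583728-61634825 on the plus strand, hg19), and their exons share 142 bases. FADS2 was at 337, 141, 147, 129, 118, 122 and 104 FPKM, whereas FADS1 was at 93.8, 65.7, 66.6, 62.7, 55.3, 45.1 and 35.2 FPKM. Relative to the median record, FADS2 thus showed its change almost wholly at day 1 (-1.15, and -1.10 at day 18), and FADS1 in part later (-0.41 and -0.81). As deposited, both were lower again at day 18, with -1.26 and -1.70 for FADS2 and -0.51 and -1.41 for FADS1.

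ELOVL6, which extends palmitate to stearate, had the largest change after day 1 of the 28. It was at 49.0, 30.03, 27.0, 20.6, 20.9, 14.6 and 9.75 FPKM. At day 18 it stood at 19.9% of day 0, the lowest of the 28, with a relative change of -0.60 at day 1 and -1.72 at day 18. ELOVL5, which extends polyunsaturated fatty acids, was at 78.5, 50.1, 51.6, 49.5, 41.9, 36.9 and 27.7 FPKM, with relative changes of -0.54 and -0.90.

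**Figure D2:**
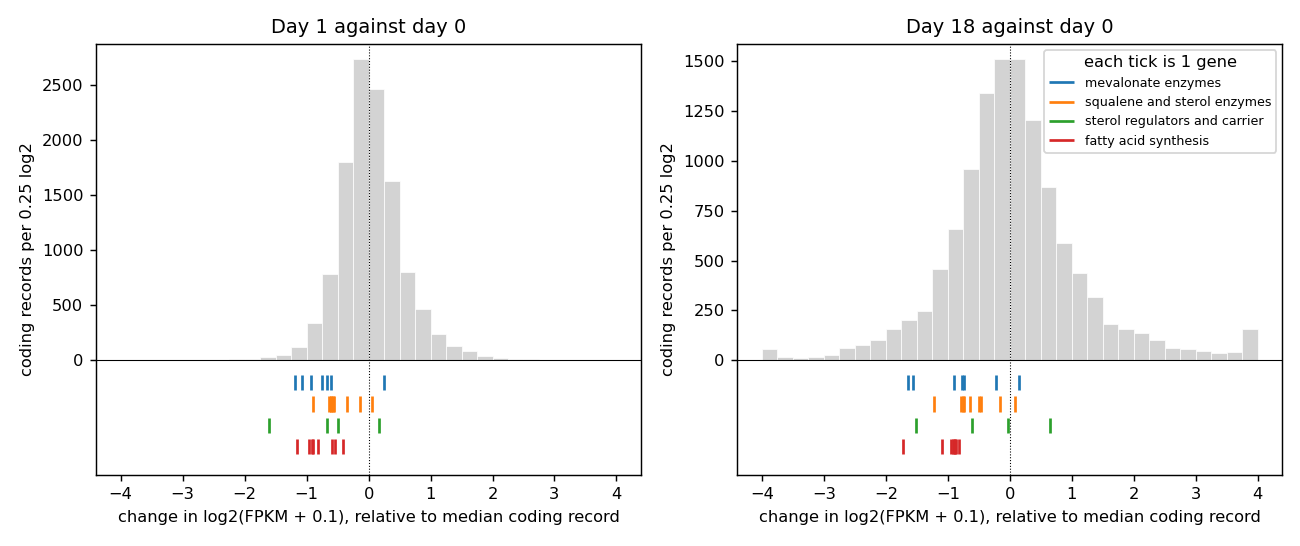
Grey bars count the 11793 coding records by their change in log2(FPKM + 0.1) relative to their median, in bins of 0.25, for day 1 (left) and day 18 (right) against day 0, with changes past 4 in either direction put in the end bins; ticks under the bars are the 28 genes, one row per role. At day 1, 25 of 28 ticks lie left of 0 and 20 of 28 lie in the lowest 10% of records, and at day 18 the bars are wider and 5 of 28 ticks lie in their lowest 10%.

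By day 18 far more coding records of all kinds differed from day 0. Relative to the median record, 6 of 28 were at least 2-fold lower than at day 0 (FDPS, EBP, SREBF1, ACAT2, FADS2 and ELOVL6), where 12.1% of coding records were. As deposited, 22 of 28 were, against 29.9%. At 1.5-fold, 20 of 28 were lower, against 22.7%. None was 2-fold higher relative to the median record, where 14.7% of coding records were. The median relative change of the 28 was -0.78, and 16.9% of coding records were below that value, against 7.51% below the members' median at day 1.

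The steps between adjacent days show when the differences arose. From day 1 to day 2 the genes were divided evenly relative to the median record, 14 of 28 lower and 14 higher. As deposited, 8 were lower and 20 higher, where 38.2% of coding records were lower. SREBF1 had the highest relative change of the 28 in that step, at 0.45. From day 2 to day 4, 22 of 28 were lower with a median of -0.19, and 9 lay in the lowest 10%. From day 4 to day 5, across the replating, 17 of 28 were lower with a median of -0.02. As deposited, 26 of 28 were lower, where 68.0% of coding records were. In the last steps, 22 of 28 were higher relative to the median record between days 5 and 11, as were 19 of 28 between days 11 and 18. As deposited, 21 of 28 and 24 of 28 were lower in these last steps, where 71.3% and 81.4% of coding records were. These counts lie near those shares, so nothing about the 28 is read from them. Of the steps after day 1, the count lower was 22 of 28 on both scales from day 2 to day 4, and in the other 4 steps it depended on the scaling.

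Day 18 was therefore set against day 1 directly. The median relative change of the 28 over those days was -0.003, with 14 of 28 lower. As deposited, all 28 were lower over this span, with a median of -0.52, and the median coding record was also at -0.52, so the even split rests on the recentring. The 16 sterol synthesis enzymes had a relative median of -0.06, the fatty acid genes of 0.004 and the regulators and carriers of 0.30. Relative to the median record, ELOVL6 (-1.09) and FDPS (-0.55) were the lowest of the 28 between days 1 and 18.

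**Figure D3:**
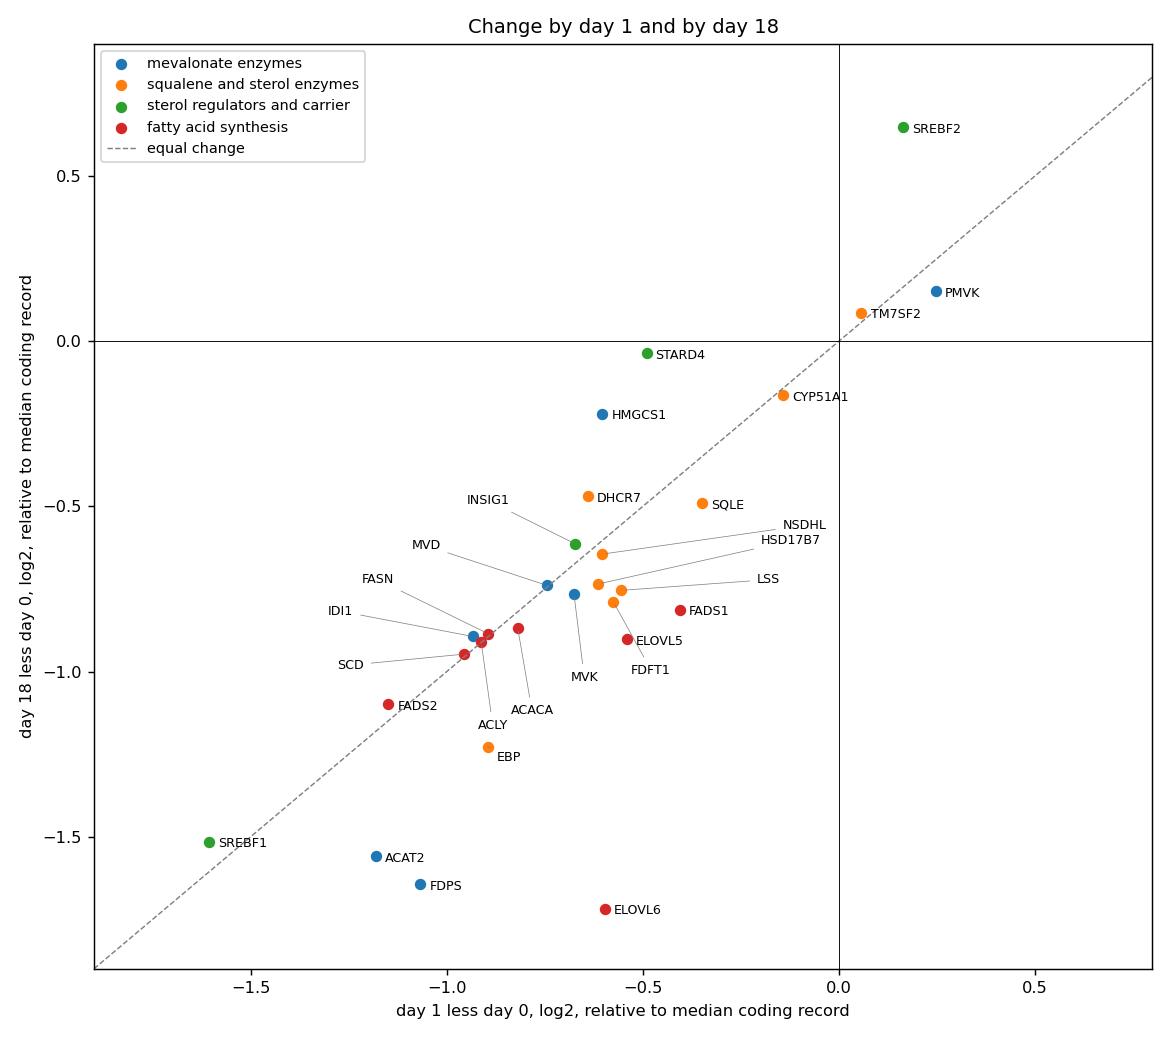
Relative log2 change from day 0 to day 1 (horizontal axis) and from day 0 to day 18 (vertical axis) of the 28 genes, coloured by role, with the dashed line where the 2 are equal; both axes use the same day 0 value. Most points lie near the line, ELOVL6, FDPS, FADS1, ACAT2, ELOVL5 and EBP lie farthest under it, and SREBF2, STARD4 and HMGCS1 lie farthest above it.

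In levels, the 28 were abundant transcripts. All 28 lay above the median expressed coding record at day 0, 17 of 28 were in the top 10%, and 14 of 28 were in the top 10% at day 18. The highest value of the time course was that of day 0 in 26 of 28 genes (44.8% of expressed coding records), the exceptions being PMVK and SREBF2, and the lowest was that of day 18 in 23 of 28 (66.0%). Over the 7 days, the pattern of a gene was described by Pearson's r between its log2 values, less the median record, and the mean of the other sterol enzymes. That r was between 0.81 and 0.99 for 22 of 28 genes, 0.73 for HMGCS1, 0.67 for CYP51A1, 0.57 for STARD4, -0.20 for TM7SF2, -0.55 for SREBF2 and -0.89 for PMVK. The 7 points behind each r come from the same libraries for every gene.

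Markers of proliferation and of other cells also differed between these days. The 6 proliferation markers summed to 590 FPKM at day 0, 317 at day 1 and 118 at day 18, all 6 were lower at day 1 with a median of -0.81, and all 6 were at least 2-fold lower at day 18. Of the 6 mesenchymal and fibroblast markers, the 5 with a mean of at least 1 FPKM summed to 667 FPKM at day 0, 378 at day 1 and 56.2 at day 18. All 5 were at least 2-fold lower at day 18. Between day 1 and day 11 the proliferation markers ranged from 251 to 319 FPKM. The part of either group of cells in the lipid gene differences was not tested.

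**Figure D4:**
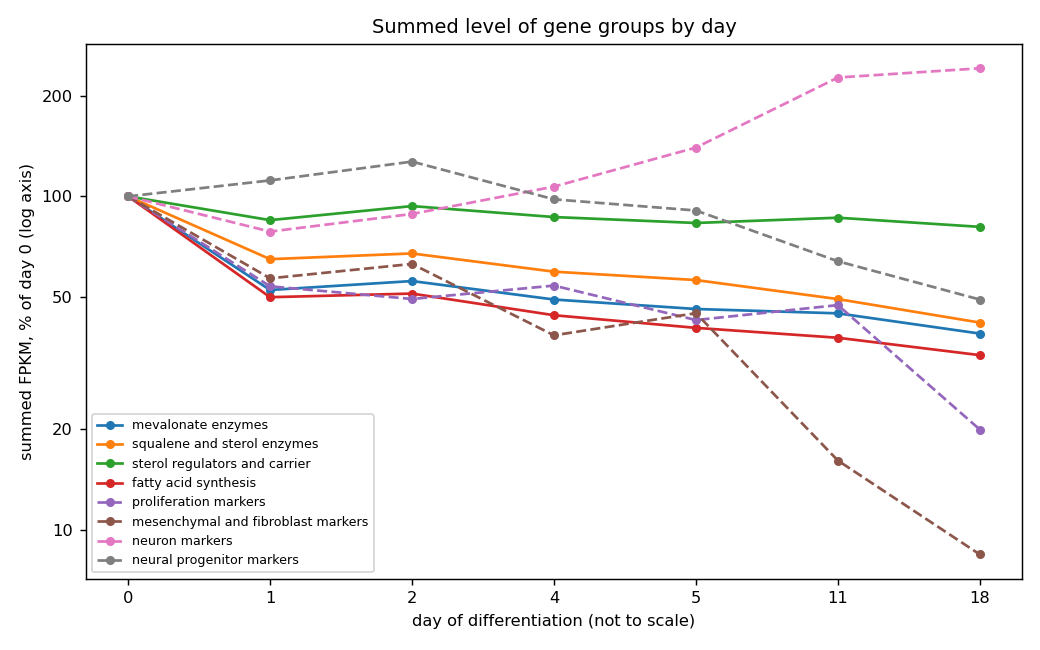
Summed FPKM of the 4 groups of lipid genes (solid) and of 4 marker lists (dashed) by day, as a percentage of the day 0 sum on a log axis. Each sum covers the genes with a mean of at least 1 FPKM and is led by its most abundant genes. Mevalonate enzymes, squalene and sterol enzymes, fatty acid genes, proliferation markers and mesenchymal markers are all lower at day 1, and the neuron markers are above their day 0 sum from day 4 on.

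Related genes outside the 28 were described from lists by role. As deposited, 59.7% of the expressed coding records were lower at day 1 than at day 0, and 76.1% at day 18. Counts as deposited for these lists are to be read against those shares. Of 6 other sterol synthesis genes, all with a mean of at least 1 FPKM, 5 were lower at day 1 and 4 at day 18 relative to the median record, and 6 at day 18 as deposited. Of 6 expressed genes of SREBP transport and sterol sensing, 2 were lower at day 1 and 1 at day 18, with medians of 0.15 and 0.23, but as deposited 5 of 6 were lower at day 18, with a median of -0.37. INSIG2, the second SREBP anchor, was at 4.89 FPKM at day 0, 5.11 at day 1 and 7.20 at day 18, a relative change of 1.15 at day 18 (0.55 as deposited) against -0.61 for INSIG1.

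Of 8 expressed genes of sterol transport, storage and turnover, 4 were lower at day 1, of which the sterol exporters ABCA1 and ABCG1 by at least 2-fold, and none was past 2-fold at day 18 relative to the median record. At day 18, 3 of 8 were lower with a median of 0.19. As deposited, 6 of 8 were lower with a median of -0.41, near the 76.1% of coding records that were lower on that scale. For both exporters, day 1 was the lowest of the 7 days. ABCA1 was at 10.4, 4.55, 6.41, 7.05, 8.00, 8.70 and 6.11 FPKM and ABCG1, with a mean close to 1 FPKM, at 1.24, 0.460, 0.923, 1.08, 0.920, 1.30 and 1.55 FPKM.

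Of 15 expressed other genes of fatty acid synthesis, 13 were lower at day 1, none by 2-fold, and 9 at day 18. As deposited, 12 were lower at day 18, where 76.1% of coding records were. SCD5, the second human stearoyl-CoA desaturase, stood opposite to SCD. It was at 11.4, 16.9, 14.97, 19.7, 22.8, 43.0 and 41.3 FPKM, a relative change of 2.44 at day 18 and of 1.85 as deposited, against -0.95 for SCD. The level of SCD stayed above that of SCD5 on all 7 days. ELOVL1, an elongase of long saturated chains, PTPLA, a dehydratase of elongation, and ACSS2, which makes acetyl-CoA from acetate, were at least 2-fold lower at day 18, with relative changes of -1.40, -1.32 and -1.24. Of 9 expressed genes of fatty acid oxidation, 3 were lower at day 1 and 6 at day 18, with medians of 0.06 and -0.10. As deposited, 5 and 7 were lower, with medians of -0.05 and -0.70, where 59.7% and 76.1% of coding records were lower. CPT1A, which admits fatty acids to mitochondria, was the one of them past 2-fold relative to the median record (-1.02 at day 18, from 4.27 to 1.32 FPKM).

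The counting was not stated to use strand, and 14 of 28 genes share exon bases with a record on the other strand, so reads of such pairs may not be separable. With a coding record, the shared part was over 10% of the exon bases for FDPS (25.7%, with C1orf104, at 7.33 FPKM or less) and ACAT2 (21.4%, with TCP1, at 98.5 FPKM at day 0 and 49.6 at day 18). With antisense long noncoding records, the largest shared parts were those of INSIG1 (94.0%), SCD (78.7%) and ELOVL6 (74.0%). Also over 10% with a single such record were LSS (60.5%), FADS2 (45.9%), CYP51A1 (30.1%), FDFT1 (21.0%) and FASN (10.6%). The partner of ELOVL6 was at 13.2 FPKM at day 0, 5.75 at day 1 and 5.18 at day 18, and those of INSIG1 and SCD were under 4 FPKM on all 7 days.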

How the data were processed

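Polyadenylated RNA of 20 cultures was sequenced by the authors in paired reads of 101 bases. Per the study's methods, reads were aligned to hg19 with TopHat2, and FPKM was estimated with Cuffdiff2 at default options over a merged catalogue of coding genes and long noncoding RNAs; versions are not given in the sources used here. The deposited FPKM table holds 1 value per record and day. The authors' second table also lists tests of adjacent days (status, values, fold changes, statistics, p-values and q-values), which were not used; exon coordinates, strands and names were read from it. There were 0 columns of single samples, so no spread, interval, depth or test was available.

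For each symbol the coding record with the highest mean FPKM was kept. Changes are differences of log2(FPKM + 0.1), less the median over 11793 coding records on primary chromosomes with a mean of at least 1 FPKM. Counts used a threshold of 2-fold, read against the share of those records past it. All 28 genes are named. Of the other lists, expressed genes past 2-fold at day 18 are named, at most 5 per list, and ABCA1 and ABCG1 were named after their values were seen. The rule's result for 1 gene is not reported here. The genes and lists were chosen with earlier results of these data known. The code was tested on simulated data. Alternatives were the values as deposited, upper-quartile scaling, a pseudocount of 1, no filter or a mean of at least 5 FPKM, a 1.5-fold threshold, summed records, and leaving out records with several symbols. Promoter letters were searched on both strands of RefSeq windows. Python 3.11.15 and pandas 2.3.3 were used.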

Additional observations from a re-analysis of the deposited data

How the results depend on the processing

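No paired analysis was possible because the deposited table holds 1 value per day, and for the same reason no culture could be left out in turn. The medians of the 16 sterol enzymes and of the 8 fatty acid genes, on days 1 and 18 against day 0, kept their sign under every setting run. As deposited, the day 18 medians of the sterol sensing and sterol transport lists and the day 1 median of fatty acid oxidation changed sign, as the report gives them. As deposited, without recentring, the number at least 2-fold lower was 9 at day 1 and 22 at day 18, the sterol enzyme medians were -0.72 and -1.34, and the fatty acid medians were -0.96 and -1.51. With no filter on low values, 7 and 18 genes were 2-fold lower, and the day 18 medians were -1.06 for sterol enzymes and -1.23 for fatty acid genes. That setting alters the median that is subtracted, not the FPKM values of these genes, so their changes shifted together. At day 18, FDPS went from -1.64 to -1.96 and SREBF2 from 0.65 to 0.33. The share of all coding records past 2-fold without the filter is not given, so these higher counts are not read as larger changes of the genes. At a threshold of 1.5-fold, 18 genes were lower at day 1, and 20 lower and 1 higher (SREBF2) at day 18. Upper-quartile scaling gave day 1 medians of -0.50 and -0.75. The pseudocount of 1, the mean of at least 5 FPKM, summed records and leaving out records with several symbols left each of these counts within 1.5 times the reported one. Among single genes, PMVK, STARD4 and TM7SF2 changed sign at day 18 under at least 1 setting, and TM7SF2 at day 1. The depth behind low values is unknown, which limits ABCG1 and PTPLA most.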

Other observations

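Outside the 28 genes, which were left out of this ranking, the coding records most like the sterol enzymes over the 7 days were genes of other functions. Out of 6219 other coding records with a mean of at least 10 FPKM, the highest Pearson's r to the mean of the 16 sterol enzymes was that of CD2BP2 (0.994). It was followed by GPC1 (0.992), PKIG (0.991), EXOSC10 (0.990) and CCNC (0.990). Their changes were smaller than those of many sterol enzymes. CD2BP2 was at 33.1 FPKM at day 0, 27.2 at day 1 and 19.0 at day 18, a relative change of -0.17 at day 1 and -0.20 at day 18. GPC1, a cell surface heparan sulfate proteoglycan, was at 58.0, 36.0 and 25.6 FPKM on those days, a relative change of -0.58 on both. The 7 points behind each r come from the same libraries, and r does not see the size of a change.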
